A study of Mus musculus with 9 samples.

Results

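The cadherins and Epcam described here are 7 adhesion genes, Cdh1, Cdh2, Cdh3, Cdh6, Cdh11, Cdh13 and Epcam, chosen by name from the 19938 genes that carried a single gene symbol in the array's annotation. Each had 1 such feature on the array, so no choice among features was needed for any of them. Their transcripts were read on 9 whole-transcript Affymetrix arrays for mouse genes, 1 per mammary tumour sample, with 3 samples from each of the transplantable lines NDL, Met1 and SSM2. The tumours had been grown from cultured cells that were injected into uncleared mammary fat pads of female FVB/N mice aged 6 to 8 weeks and collected at a width of 5 to 10 mm. All groups shared this host strain, and the labels give no treatment and no genetic change of the host. From general knowledge of these lines, the NDL line has a transgene of activated ErbB2 (neu) and Met1 a polyoma middle T transgene, both under the mouse mammary tumour virus promoter, while SSM2 is a hormone receptor-positive line. Each group is a single cell line, so the line and its oncogene cannot be told apart. The labels do not say whether samples of a line came from separate animals or tumours, and p-values then measure only the spread between these samples, which may be technical.

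Classical cadherins are calcium-dependent adhesion receptors whose extracellular domains bind like molecules on the next cell and whose tails bind catenins, which link them to actin. Mammary luminal cells are known for E-cadherin (Cdh1) and basal cells for P-cadherin (Cdh3), whereas N-cadherin (Cdh2) and cadherin-11 (Cdh11) are known from mesenchymal cells. The loss of E-cadherin with a gain of N-cadherin is called the cadherin switch. Epcam is a cell surface glycoprotein of simple epithelia that shares no homology with cadherins.

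Values are deposited log2 signals, on which a difference of 1 is a 2-fold difference, and levels were compared between lines within a gene, not between genes. The upper quartile of signal over genes lay between 7.84 and 8.09 in NDL, 8.02 and 8.05 in Met1, and 7.98 and 8.08 in SSM2, with NDL replicates 1 and 2 lowest at 7.85 and 7.84. The 25th percentile of gene means was 4.91, and 4 Y-linked transcripts, which female hosts lack, ranged over 2.61 to 3.85. No member's mean in any line lay under that percentile, the lowest being Cdh2 in SSM2 and Cdh3 in Met1, both at 5.20. Neither level is a floor for each probe, and the skeletal muscle gene Tnnt3 read 6.41 to 6.52 in all 9 samples. Whether Cdh2 in NDL and SSM2, Cdh3 in NDL and Met1, and Cdh6 lay above their probes' background was not tested. The same holds for Epcam in Met1 replicate 3 (5.25). Folds against such values are relative to a level that may be background. Arrays of a line correlated at r from 0.947 to 0.995 over genes, against 0.891 to 0.949 between lines, and genes are not independent replicates. The number of arrays limits the precision of every value.

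Met1 tumours stood apart from both other lines in E-cadherin, Epcam and N-cadherin. Cdh1 and Epcam were low and Cdh2 was high in Met1, P-cadherin was high in SSM2, and Cdh6 and Cdh13 did not pass in any comparison. By a moderated F-test in limma, 5 of 7 members differed among the lines at an adjusted p under 0.05, against 25.1% of all genes. Because members and lists were chosen with earlier results of these data known, such shares here and below are a description and not a test.

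**Figure D1:**
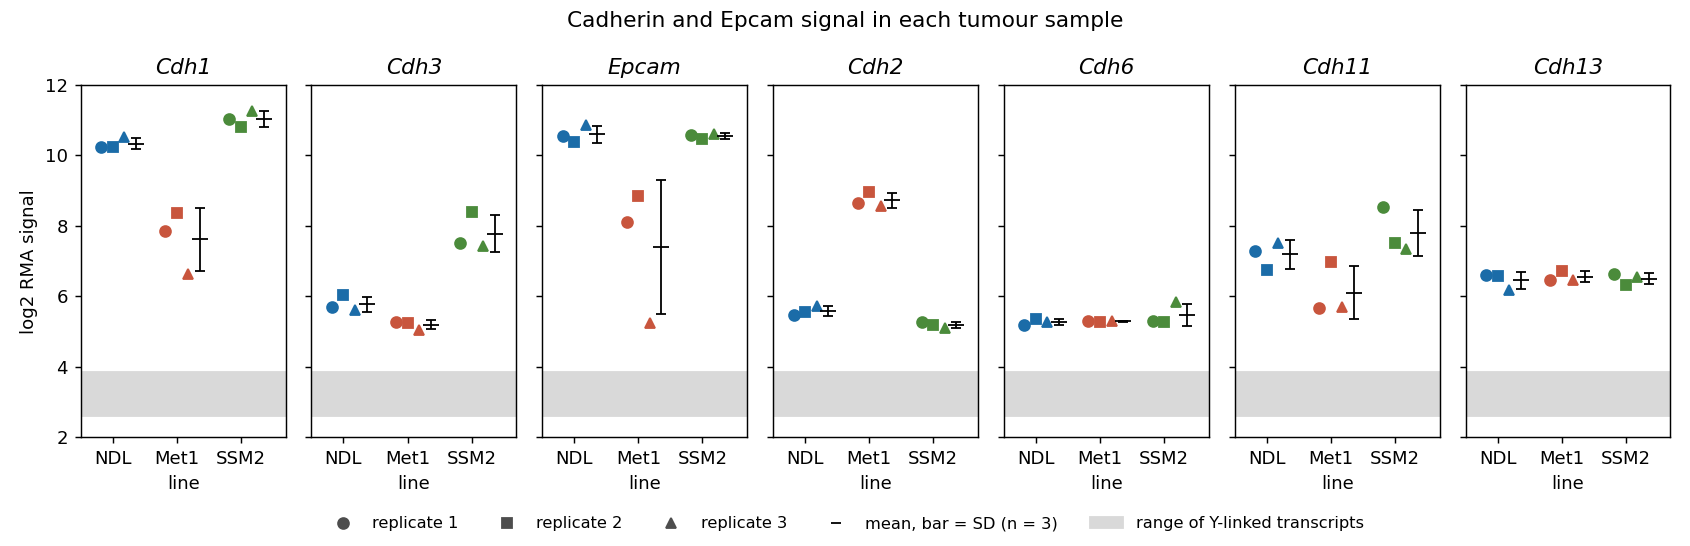
Log2 RMA signal (vertical axis) of each member in the 3 NDL, 3 Met1 and 3 SSM2 samples, with symbols for replicates, the mean and its SD beside them, and a grey band for the Y-linked transcripts (2.61 to 3.85). Cdh2 was between 8.56 and 8.96 in Met1 and at most 5.73 in all other samples, and Epcam in Met1 replicate 3 (5.25) lay far under the other 8 samples.

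Cdh1 (feature 10575052, chromosome 8), the E-cadherin gene, was high in NDL and SSM2 and lower in Met1. It stood at 10.25, 10.24 and 10.51 in the NDL samples, 7.87, 8.37 and 6.64 in Met1, and 11.04, 10.82 and 11.27 in SSM2. No sample of any line overlapped with another line, and Met1 replicate 3 was the lowest of all. NDL exceeded Met1 by 6.54-fold (log2 difference 2.71 with SE 0.38, adjusted p = 0.00173), and Met1 was lower than SSM2 by 10.7-fold (log2 difference -3.42, SE 0.38, adjusted p = 0.000915). Between NDL and SSM2 the difference of -0.71 (95% interval -1.58 to 0.16) did not pass (adjusted p = 0.214), although all 3 NDL samples lay under all 3 SSM2 samples. It passed without Met1 replicate 3 (adjusted p = 0.0401) and in a fit of these lines alone (0.0466), and the adjusted p ranged from 0.0401 to 1.00 over all alternatives. The SD of Cdh1 was 0.15 in NDL, 0.89 in Met1 and 0.23 in SSM2 (n = 3 each), and only 101 genes had a larger SD in Met1.

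Cdh3 (feature 10575034), the P-cadherin gene, lies beside Cdh1 on chromosome 8, with 0 protein-coding genes between them in the RefSeq order of GRCm38.p6, and followed another order of lines. It stood at 5.69, 6.03 and 5.62 in NDL, 5.28, 5.26 and 5.06 in Met1, and 7.52, 8.40 and 7.44 in SSM2. All SSM2 samples were higher than all others, and SSM2 replicate 2 was the highest. Relative to SSM2, Cdh3 was 4.02-fold lower in NDL (log2 difference -2.01, SE 0.25, adjusted p = 0.00113) and 6.01-fold lower in Met1 (-2.59, SE 0.25, adjusted p = 0.00042). NDL and Met1 did not overlap either, but their difference of 0.58 (95% interval 0.02 to 1.14) did not pass (adjusted p = 0.143). It passed without SSM2 replicate 2 (0.0251) and in a fit of these lines alone (0.0323). The mean of 7 basal and myoepithelial markers spanned 6.58 to 6.98 for NDL, 5.81 to 7.14 for Met1 and 8.36 to 9.01 for SSM2. Of these markers, 1 was higher and 4 lower in NDL than in SSM2, against 9.35% and 7.52% of all genes. In Met1 against SSM2, 0 were higher and 4 lower, against 7.1% and 4.71%, so not all of them followed Cdh3. The part of basal-like cells in the Cdh3 difference was not tested, and in whole tumours fewer cells of a type and less RNA per cell cannot be told apart.

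Cdh2 (feature 10457644, chromosome 18), the N-cadherin gene, was the member with the smallest spread against its difference. It stood at 5.46, 5.56 and 5.73 in NDL, 8.65, 8.96 and 8.56 in Met1, and 5.28, 5.20 and 5.11 in SSM2. Every sample of Met1 lay at least 2.83 log2 units above every NDL sample and 3.28 above every SSM2 sample. In NDL, Cdh2 was 8.82-fold lower than in Met1 (log2 difference -3.14, SE 0.13, adjusted p = 7.52e-06), and Met1 was 11.5-fold higher than SSM2 (3.52, SE 0.13, adjusted p = 1.21e-05). Both calls held in all 22 alternatives, with log2 differences from -3.22 to -2.99 and from 3.41 to 3.61. NDL was above SSM2 in all 3 samples, by 0.38 (95% interval 0.09 to 0.68), which did not pass (adjusted p = 0.0791). The SD of Cdh2 in Met1 was 0.21, under that of Cdh1 (0.89) and Epcam (1.90), but 80.0% of all genes had a smaller SD there (median 0.113).

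Cdh11 (feature 10581013, chromosome 8), which encodes a type II cadherin known from osteoblasts and fibroblasts, did not follow Cdh2. It stood at 7.30, 6.74 and 7.52 in NDL, 5.68, 6.97 and 5.69 in Met1, and 8.53, 7.51 and 7.35 in SSM2. Met1 replicate 2 reached into the NDL range and stayed under every SSM2 sample, and NDL and SSM2 overlapped. Met1 was lower than SSM2 (log2 difference -1.69, SE 0.43, adjusted p = 0.0376), while NDL minus Met1 (1.08, 95% interval 0.10 to 2.06, adjusted p = 0.121) and NDL minus SSM2 (-0.61, 95% interval -1.59 to 0.38, adjusted p = 0.335) did not pass. The call between Met1 and SSM2 ended without NDL replicate 1 (adjusted p = 0.0687), Met1 replicate 1 (0.14) or 3 (0.129), or SSM2 replicate 1 (0.0917) or 2 (0.0714), and without Met1 replicate 2 NDL passed against Met1 (1.51, adjusted p = 0.0404). The mean of 10 fibroblast markers was 8.94, 8.90 and 8.93 in the NDL samples, 8.55, 9.23 and 9.14 in those of Met1, and 10.32, 9.65 and 8.80 in those of SSM2. Of these markers, 3 were higher and 4 lower in NDL than in Met1, against 8.88% and 10.2% of all genes. In NDL against SSM2, 0 were higher and 1 lower, against 9.35% and 7.52%. In Met1 against SSM2, 4 were higher and 3 lower, against 7.1% and 4.71%, so they did not move as 1 group. Chosen after their values were seen, Col1a1 stood at 9.38, 11.05 and 9.69 in Met1 and 12.13 to 12.23 in NDL. Pdgfra went the other way, at 10.20, 10.26 and 10.47 in Met1 and 7.55 to 7.90 in NDL. The part of fibroblasts in the Cdh11 values was not tested. A further 3 features named for Cdh11 together with other genes were left out, since their signal cannot be assigned. Their NDL means spanned 8.78 to 9.49, their Met1 means 8.42 to 9.34 and their SSM2 means 9.62 to 10.56.

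Cdh6 and Cdh13 did not pass in any of the 3 comparisons. Cdh6 (feature 10427862, chromosome 15), the kidney cadherin gene, stood at 5.19, 5.35 and 5.29 in NDL, 5.30, 5.28 and 5.30 in Met1, and 5.30, 5.27 and 5.84 in SSM2. SSM2 replicate 3 was the highest sample, and the other 8 lay within 5.19 to 5.35. The largest difference was NDL minus SSM2 at -0.20 (95% interval -0.55 to 0.16, adjusted p = 0.381). Cdh13 (feature 10575844, chromosome 8) encodes T-cadherin, which lacks the catenin-binding tail and is anchored by a lipid. It stood at 6.62, 6.58 and 6.17 in NDL, 6.47, 6.74 and 6.45 in Met1, and 6.65, 6.32 and 6.55 in SSM2. The lines overlapped, and the largest difference was NDL minus Met1 at -0.10 (95% interval -0.46 to 0.26, adjusted p = 0.697).

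Epcam (feature 10447383, chromosome 17) stood at 10.54, 10.38 and 10.87 in NDL, 8.11, 8.85 and 5.25 in Met1, and 10.59, 10.46 and 10.60 in SSM2. All Met1 samples were lower than all others, NDL and SSM2 overlapped, and Met1 replicate 3 lay 2.86 under the next Met1 sample. NDL exceeded Met1 by 9.18-fold (log2 difference 3.20 with SE 0.77, adjusted p = 0.0209), and Met1 was 8.88-fold lower than SSM2 (-3.15, SE 0.77, adjusted p = 0.0314). Without Met1 replicate 3 the differences were smaller and their adjusted p lower, at 2.12 (adjusted p = 0.00179) and -2.07 (adjusted p = 0.00264). The call between NDL and Met1 ended without NDL replicate 1 (adjusted p = 0.0687), NDL replicate 2 (0.0527) or both (0.168), and that between Met1 and SSM2 without NDL replicate 1 (0.0599), NDL replicates 1 and 2 together (0.0832), Met1 replicate 1 (0.0601), or SSM2 replicate 1 (0.0731), 2 (0.0836) or 3 (0.067). NDL and SSM2 differed by 0.05 (95% interval -1.71 to 1.80, adjusted p = 0.97), an interval that a difference of 2-fold in either direction lies within. The fit shares 1 estimate of spread over the 3 lines, so the width of this interval includes the spread of Met1. Within NDL the SD of Epcam was 0.25, and within SSM2 it was 0.08 (n = 3 each). The SD of Epcam in Met1 was 1.90 (n = 3), and only 4 of 19938 genes had a larger SD there.

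Promoter sequences from RefSeq (GRCm38.p6) were used for 2 members, Epcam and Cdh6, and those of the other members were not used here. Each is 250 bases before and 50 after the annotated start. They are printed with those of Rab25 and Kcnk1, genes among the 3 with the most similar profile to Epcam, because these move together over the samples while Cdh6 did not pass. The promoter of Esrp1, the gene most like Epcam, was not used here, so this set is partial and was chosen on these data. The 6-base E-box CACCTG is known as a site for the repressors of the Snai and Zeb families, and its matches on either strand (CACCTG or CAGGTG) are in capitals. The windows are chr17:87635729-87636028 on the plus strand for Epcam, chr3:88548230-88548529 on the minus strand for Rab25, chr8:125994852-125995151 on the plus strand for Kcnk1 and chr15:13173626-13173925 on the minus strand for Cdh6.
Epcam: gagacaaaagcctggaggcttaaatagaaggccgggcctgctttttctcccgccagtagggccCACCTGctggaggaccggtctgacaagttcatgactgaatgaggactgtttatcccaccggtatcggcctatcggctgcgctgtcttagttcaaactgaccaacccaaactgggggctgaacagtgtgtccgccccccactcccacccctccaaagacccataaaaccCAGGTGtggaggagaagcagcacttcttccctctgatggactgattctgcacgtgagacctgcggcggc
Rab25: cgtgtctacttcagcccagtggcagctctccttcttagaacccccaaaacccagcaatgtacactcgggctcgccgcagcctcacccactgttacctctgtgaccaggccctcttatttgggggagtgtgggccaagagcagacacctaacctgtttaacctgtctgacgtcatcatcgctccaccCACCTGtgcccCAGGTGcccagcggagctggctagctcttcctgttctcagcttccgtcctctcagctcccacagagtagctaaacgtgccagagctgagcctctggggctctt
Kcnk1: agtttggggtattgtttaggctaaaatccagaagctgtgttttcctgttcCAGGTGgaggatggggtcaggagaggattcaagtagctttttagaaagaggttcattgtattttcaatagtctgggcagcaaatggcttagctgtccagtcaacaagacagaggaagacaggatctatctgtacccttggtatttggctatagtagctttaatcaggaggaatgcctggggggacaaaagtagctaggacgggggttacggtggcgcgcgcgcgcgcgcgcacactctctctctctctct
Cdh6: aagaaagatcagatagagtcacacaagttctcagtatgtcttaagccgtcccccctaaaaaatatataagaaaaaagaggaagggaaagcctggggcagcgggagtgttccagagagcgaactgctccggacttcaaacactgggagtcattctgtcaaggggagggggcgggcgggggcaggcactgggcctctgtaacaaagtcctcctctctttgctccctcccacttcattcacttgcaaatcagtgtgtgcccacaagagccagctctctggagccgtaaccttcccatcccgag
Epcam had 2 matches, which began 187 and 19 bases before the start, Rab25 had 2 at 64 and 53 bases before it, Kcnk1 had 1 at 200 bases before it, and Cdh6 had 0. Of 32851 promoters of this length, 20.2% held at least 1 match and 2.88% at least 2. A match is a description of the letters and not evidence of binding, and the absence of a match says only that these letters are not in the window.

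Compared line by line, the members that passed were as follows. In NDL against Met1, Cdh1 and Epcam were higher, 2 of 7 against 8.88% of all genes, and Cdh2 was lower, 1 of 7 against 10.2%. The samples of these lines did not overlap for 4 members, against 38.2% of genes. In NDL against SSM2, limma called 0 members higher, against 9.35% of genes (1 at an unadjusted p under 0.05, Cdh2), and 1 lower, Cdh3, against 7.52%. Here 3 members did not overlap, against 31.6% of genes. In Met1 against SSM2, Cdh2 was higher, 1 of 7 against 7.1%, and Cdh1, Cdh3, Cdh11 and Epcam were lower, 4 of 7 against 4.71%, with 5 members not overlapping against 31.7% of genes. Leaving out 1 sample gave 1 to 3 higher members between NDL and Met1 and 2 to 4 lower members between Met1 and SSM2. The median log2 difference of the members was 0.58 for NDL minus Met1, -0.20 for NDL minus SSM2 and -1.69 for Met1 minus SSM2, against 0.06, 0.09 and 0.04 over all genes. The 3 comparisons share samples with one another.

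**Figure D2:**
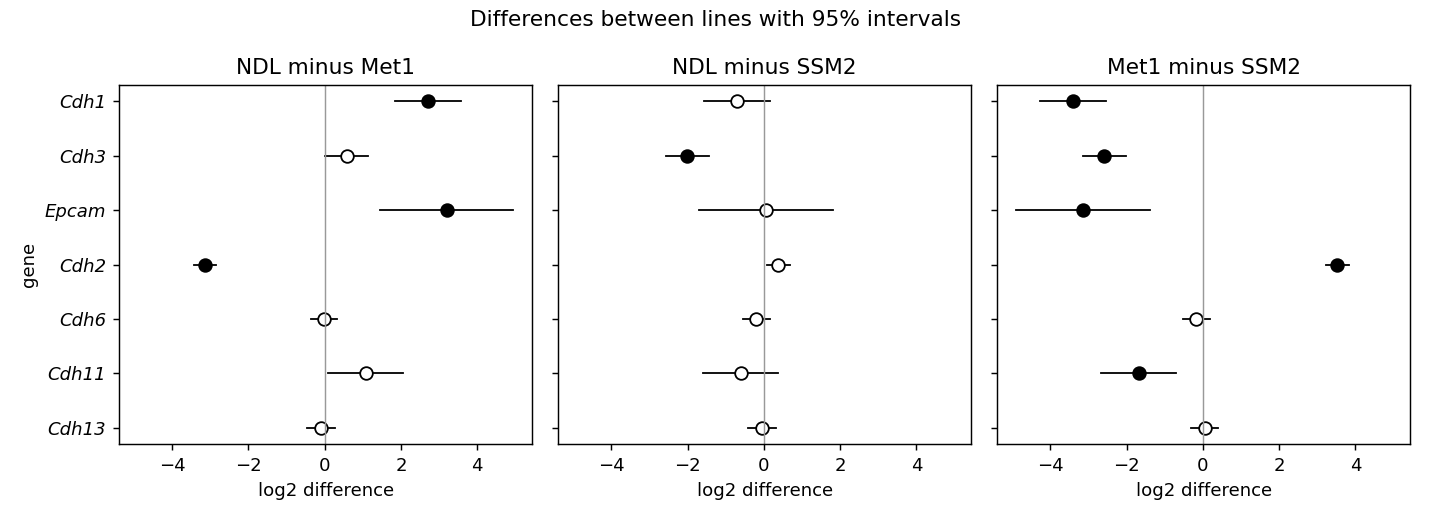
Log2 differences (horizontal axis) of each member in the 3 comparisons, with 95% intervals from the limma fit on 9 arrays; filled circles passed an adjusted p under 0.05 and open circles did not. Cdh2 had the narrowest intervals and Epcam the widest, and the Cdh1 difference between NDL and SSM2 (-0.71) had an interval that spans 0.

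In the log2 ratio of Cdh1 to Cdh2 within a sample, a constant shift of that array cancels, but steps of RMA that depend on intensity do not. The ratio was centred on its mean over the 9 samples because its zero has no meaning across probes. The centred ratio was 1.62, 1.51 and 1.62 in NDL, -3.95, -3.76 and -5.09 in Met1, and 2.60, 2.45 and 2.99 in SSM2. All Met1 samples were far under the others, and all SSM2 samples were above all NDL samples. The ratio was 57.6-fold higher in NDL than in Met1, 123-fold lower in Met1 than in SSM2 and 2.14-fold lower in NDL than in SSM2. Neither Cdh1 nor Cdh2 passed between NDL and SSM2. Cdh2 and Cdh11, both known from mesenchymal cells, did not move together. The ratio of Cdh2 to Cdh11 was 18.6-fold lower in NDL than in Met1 and 37-fold higher in Met1 than in SSM2. These ratios were not tested, and the pair of Cdh2 and Cdh11 does not stand for other mesenchymal genes. All of these folds rest on Cdh2 in NDL or SSM2, a level that may be background.

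**Figure D3:**
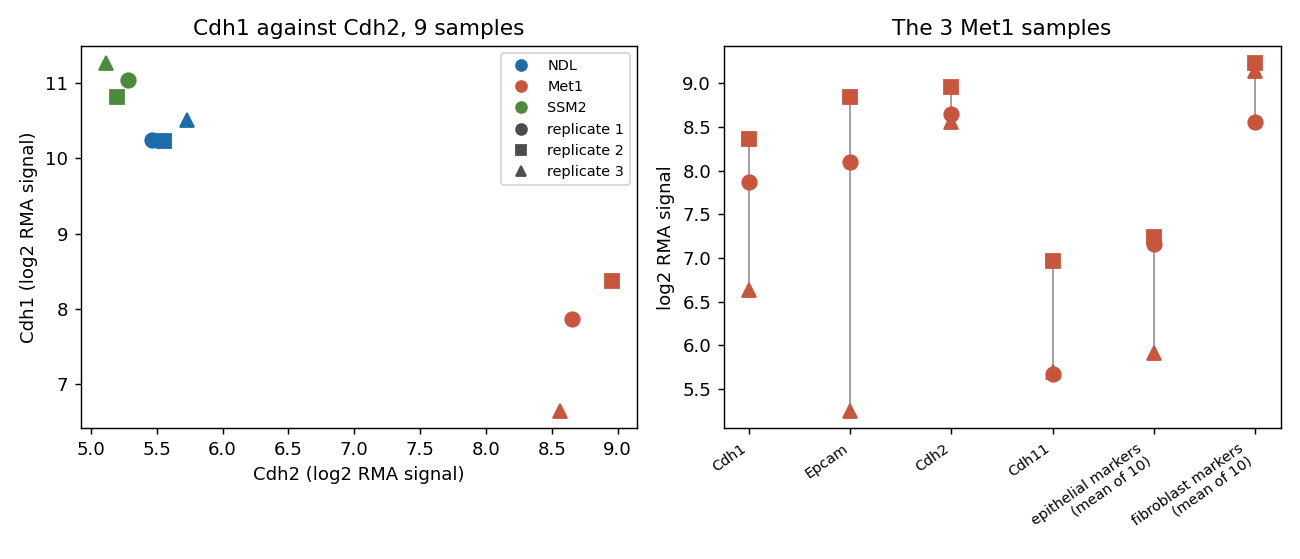
Left, Cdh1 against Cdh2 (both log2 RMA signal) in the 9 samples, coloured by line; the 3 Met1 samples lie at high Cdh2 and low Cdh1. Right, values of the 3 Met1 samples for 4 members and the means of 10 epithelial and 10 fibroblast markers; replicate 3 is lowest for Cdh1 (6.64), Epcam (5.25) and the epithelial markers (5.91).

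The Met1 samples differed among themselves in epithelial transcripts. The mean of 10 epithelial markers (keratins, claudins and others, none of them a member) was 7.16, 7.24 and 5.91 in Met1, against 9.78 to 9.99 in NDL and 10.68 to 10.86 in SSM2. Replicate 3, lowest in Cdh1 and Epcam, was also lowest in these. Of the 10 epithelial markers, 9 were higher and 0 lower in NDL than in Met1, against 8.88% and 10.2% of all genes. In Met1 against SSM2, 0 were higher and 10 lower, against 7.1% and 4.71%. Their median log2 difference was 3.37 for NDL minus Met1 and -3.45 for Met1 minus SSM2. In NDL against SSM2, 1 was higher and 2 lower, against 9.35% and 7.52%. The 2 lower were Krt19 (mean 6.26 in NDL, 13.40 in SSM2) and Cldn4 (8.90 and 11.48). The median log2 difference of the 10 for NDL minus SSM2 was -0.24, so the gap between the NDL and SSM2 list means does not describe most of them. The means of 10 macrophage markers were highest in Met1, spanning 8.61 to 9.22 for NDL, 10.08 to 10.33 for Met1 and 8.50 to 9.84 for SSM2. For endothelial markers (10 genes) the means were 6.76 to 6.93 for NDL, 6.78 to 6.99 for Met1 and 7.08 to 7.78 for SSM2, and for T cell markers (6 measured) 5.39 to 6.01 for NDL, 5.93 to 6.31 for Met1 and 5.01 to 5.86 for SSM2. For adipocyte markers (7 genes) they were 6.00 to 6.97 for NDL, 5.76 to 6.39 for Met1 and 5.71 to 7.68 for SSM2. For pericyte markers (6 genes) they were 7.06 to 7.14 for NDL, 6.40 to 6.87 for Met1 and 7.16 to 7.64 for SSM2. For skeletal muscle markers (8 genes) they were 5.59 to 5.96 for NDL, 5.60 to 5.74 for Met1 and 5.56 to 5.68 for SSM2, and for Schwann cell and nerve markers (4 measured) 5.75 to 6.30 for NDL, 5.68 to 5.75 for Met1 and 5.25 to 5.51 for SSM2. Of all these, 1 marker, the Schwann cell gene Cdh19, was at or under the highest Y-linked value, in Met1 and SSM2. The part of these cells in the differences of the members was not tested.

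The genes most like each member were found by the root mean square difference between profiles centred on their own mean over the 9 samples, among 18274 named genes. This is a description over samples that share lines and arrays. Closest to Cdh1, whose own distance from a flat profile was 1.54 log2 units, were the desmoplakin gene Dsp (0.31), the epithelial splicing regulator gene Esrp1 (0.36) and Cdcp1 (0.36), and Epcam ranked 25. Dsp averaged 8.47 in NDL, 6.14 in Met1 and 9.63 in SSM2. Closest to Epcam were Esrp1 (0.30), the potassium channel gene Kcnk1 (0.43) and Rab25 (0.49), a small GTPase of epithelial recycling, and Cdh1 ranked 8. Esrp1 stood at 7.18, 7.71 and 4.95 in the Met1 samples, with replicate 3 lowest as for Epcam. Closest to Cdh2 were Elovl4 (0.25), which extends very long fatty acids, the giant cadherin gene Fat4 (0.26) and Ndp (0.27), which encodes the Wnt receptor ligand norrin. Closest to Cdh3 were the homeobox gene Msx2, Krt90 and Arhgap40 (each 0.22), and closest to Cdh11 were the junctional receptor gene Cxadr (0.27), C1qtnf3 (0.28) and Spon1 (0.32). Cdh6 and Cdh13 were not compared this way because their line means spanned less than 1 log2 unit.

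Genes of the adherens junction, which holds cadherins through catenins, went both ways. For this and the next lists, the shares of all genes called were 8.88% higher and 10.2% lower for NDL against Met1, 9.35% and 7.52% for NDL against SSM2, and 7.1% and 4.71% for Met1 against SSM2. Of 23 measured junction genes, 7 were higher and 6 lower in NDL than in Met1. Their median log2 difference was 0.25 for NDL minus Met1, 0.17 for NDL minus SSM2 and -0.08 for Met1 minus SSM2, against 0.06, 0.09 and 0.04 over all genes. Jup, the plakoglobin gene, was higher (log2 difference 2.40, adjusted p = 0.00162), as were the cell adhesion receptor gene Nectin4 (1.77) and Shroom3 (1.60), which acts in apical constriction, while Ctnnal1, an alpha-catenin relative, was lower (-1.84). Jup stood at 10.44, 10.43 and 10.45 in NDL, 8.32, 8.60 and 7.21 in Met1, and 10.61, 10.01 and 10.07 in SSM2, with Met1 replicate 3 again lowest. In NDL against SSM2, 2 were higher and 5 lower, led by Ctnnal1 (-1.77), Ajuba (-1.64), Shroom3 (1.29) and the delta-catenin gene Ctnnd2 (1.26). In Met1 against SSM2, 1 was higher and 5 lower, led by Jup (-2.19), Nectin4 (-1.52), Plekha7 (-1.19), which binds p120 catenin, and the actin-binding gene Lima1 (-0.88). The calls of Nectin4, Lima1 and Ajuba there ended without Met1 replicate 1 or 3, which left 2 lower genes, Jup and Plekha7. The lower members in NDL against Met1 numbered 3 without Met1 replicate 2, and the higher members in NDL against SSM2 numbered 4 without NDL replicate 3. The higher genes in Met1 against SSM2 numbered 2 without SSM2 replicate 3. Without NDL replicates 1 and 2 together, NDL was higher than Met1 in 4 genes, and against SSM2 1 was higher and 2 were lower. Named after their values were seen, the genes of the main catenins, Ctnna1 (mean 10.47 in NDL, 10.60 in Met1, 10.47 in SSM2) and Ctnnb1 (mean 11.47 in NDL, 11.08 in Met1, 11.16 in SSM2), did not pass in any comparison. Likewise chosen after its value was seen, the p120 catenin gene Ctnnd1 was higher in NDL than in Met1 (0.57, adjusted p = 0.00947).

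Of 10 measured genes of Epcam partners, limma called 7 higher in NDL than in Met1, against 8.88% of all genes, and 0 lower, against 10.2% (1 at an unadjusted p under 0.05). The tetraspanin gene Tspan8 (4.29), the claudin gene Cldn7 (4.02), whose product binds Epcam, the protease inhibitor gene Spint1 (3.92) and St14 (3.15), the matriptase gene, had the largest differences. Without SSM2 replicate 1, 1 gene was lower. In NDL against SSM2, 3 were higher (1 without NDL replicates 1 and 2 together) and 1 lower, namely Tspan8 (3.61), Cldn1 (3.55), Lef1 (2.56) and, lower, Fhl2 (-2.60). The Tspan8 call there ended without NDL replicate 1 or SSM2 replicate 2. In Met1 against SSM2, 1 was higher and 5 lower, led by Spint1 (-3.55), Cldn7 (-3.52), St14 (-2.72) and Spint2 (-2.31). The higher member, Cd44, passed in 4 of 9 fits that left out 1 sample, and its call ended without NDL replicate 1, any of the Met1 samples or SSM2 replicate 2. The higher genes numbered 2 without NDL replicate 3 or SSM2 replicate 1. The median log2 difference of this list was 2.59, 0.49 and -1.31 in the 3 comparisons, against 0.06, 0.09 and 0.04 over all genes.

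Transcription factors and other regulators known to act on Cdh1 or Epcam went both ways. The list mixes repressors and activators, so the directions within it and its medians depend on which genes were listed. In NDL against Met1, 8 of 21 were higher, against 8.88% of all genes, and 6 lower, against 10.2%. The largest differences were in the ETS factor genes Elf5 (4.05) and Ehf (3.14), Esrp1 (3.07) and Grhl2 (2.97), a grainyhead factor that binds epithelial enhancers, and the Ehf call ended without NDL replicate 1 or Met1 replicate 3. The 6 lower genes, named after their values were seen, were Zeb1 (-2.40), Twist1 (-1.98), Zeb2 (-1.95) and Snai1 (-1.65), known as repressors of Cdh1, with Klf4 (-1.07), known as an activator of Cdh1, and Tcf3 (-0.66). Zeb1 stood at 6.02, 5.89 and 6.09 in NDL, 8.27, 8.64 and 8.31 in Met1, and 7.22, 6.48 and 6.53 in SSM2, and no Met1 sample overlapped the other lines. Grhl2 stood at 8.72, 8.36 and 8.93 in NDL, 5.62, 6.30 and 5.19 in Met1, and 8.57, 8.42 and 8.76 in SSM2. Met1 was lowest in every sample for Grhl2, with replicate 3 lowest. Which cells of these whole tumours held the transcripts of the regulators was not tested.

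The median log2 difference of the regulators was 0.52 for NDL minus Met1, -0.36 for NDL minus SSM2 and -0.46 for Met1 minus SSM2. In NDL against SSM2, 4 regulators were higher, against 9.35% of all genes, and 5 lower, against 7.52%, led by Elf5 (4.64), Foxa1 (-3.67), Snai2 (-2.04) and Esr1 (-1.57). Without NDL replicates 1 and 2 together, 4 regulators were higher in NDL than in Met1 and 1 was lower in NDL than in SSM2. The lower genes against SSM2 numbered 3 without NDL replicate 1 or 2, Met1 replicate 1 or SSM2 replicate 1. In Met1 against SSM2, 4 were higher, against 7.1%, and 8 lower, against 4.71%, led by the pioneer factor gene Foxa1 (-3.66), Esrp1 (-3.46), Twist1 (3.46) and Grhl2 (-2.88), and the higher members numbered 2 without Met1 replicate 1 or 2. Snai2, the gene of another known Cdh1 repressor, was highest in SSM2, the line with the highest Cdh1 mean, with means of 5.66 for NDL, 5.75 for Met1 and 7.69 for SSM2 (Met1 minus SSM2 -1.94, adjusted p = 0.00368). This comparison was singled out after its values were seen.

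**Figure D4:**
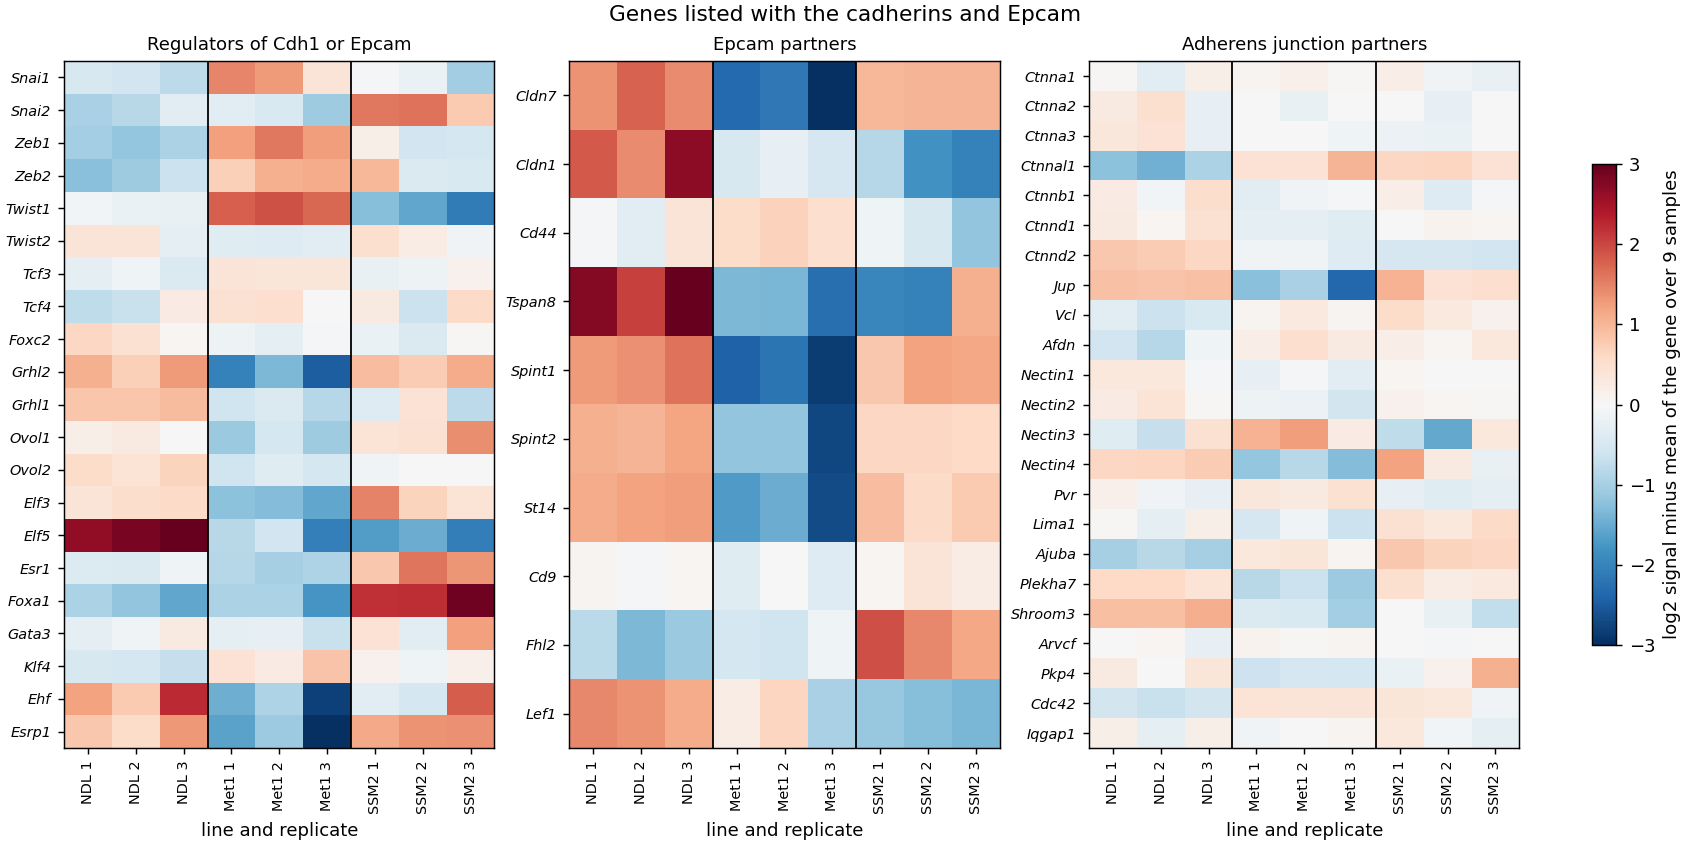
Log2 signal of each listed gene minus its mean over the 9 samples (colour, cut at -3 and 3), by line and replicate, for regulators of Cdh1 or Epcam, partners of Epcam and adherens junction genes. Cldn7, Spint1, Spint2, St14, Grhl2 and Jup are low in the 3 Met1 samples, while Ctnna1, Ctnnb1 and Iqgap1 vary little.

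Enzymes and adaptors that cleave, sort or turn over cadherins and Epcam numbered 12 measured genes, whose median log2 difference was -0.11 for NDL minus Met1, 0.01 for NDL minus SSM2 and 0.18 for Met1 minus SSM2. With so few genes, counts of this size are not read as a result about the list beside the shares over all genes (8.88% higher and 10.2% lower for NDL against Met1). In NDL against Met1, 2 were higher, the proprotein convertase genes Pcsk6 (1.41) and Furin (0.81), and 3 were lower, the ubiquitin ligase gene Cblb (-1.82), the sheddase gene Adam17 (-1.55) and Arf6 (-0.96). In NDL against SSM2, limma called 0 higher (0 at an unadjusted p under 0.05) and 3 lower, Adam10 (-2.34), the gene of the main E-cadherin sheddase, the membrane metalloprotease gene Mmp14 (-1.67) and Cblb (-0.90). In Met1 against SSM2, 2 were higher and 4 lower, led by Mmp14 (-1.74), Adam10 (-1.63), Pcsk6 (-1.39) and Arf6 (1.20). The Adam10 call there ended in 7 of 9 fits that left out 1 sample, all but those without NDL replicate 2 or 3. The higher genes there numbered 1 without Met1 replicate 2. Without NDL replicates 1 and 2 together, 0 were higher in NDL than in Met1 and 0 lower in NDL than in SSM2.

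Among 40 other measured members of the cadherin superfamily, 6 were higher, against 8.88% of all genes, and 3 lower, against 10.2%, in NDL than in Met1. Beside those shares, the counts in the 3 comparisons are not read as a result about the family, whose median log2 difference was 0.11 for NDL minus Met1, 0.21 for NDL minus SSM2 and 0.04 for Met1 minus SSM2. Fat4 (-3.12), the protocadherin gene Pcdh9 (-2.41), the flamingo cadherin gene Celsr2 (2.28) and Pcdh18 (1.44) had the largest differences. Fat4 stood at 5.74 to 6.11 for NDL, 8.91 to 9.20 for Met1 and 5.44 to 6.07 for SSM2, so that it was high in Met1 alone, as Cdh2 was. Without NDL replicate 1 the count of higher genes was 3, and without NDL replicate 2 or Met1 replicate 1 or 3 it was 2. In NDL against SSM2, 5 were higher, against 9.35%, and 3 lower, against 7.52%, led by Pcdh18 (2.71), Fat2 (-1.86), Celsr2 (1.77) and Pcdh19 (-1.27). The higher members there numbered 11 without NDL replicate 3, and 3 without NDL replicate 1 or 2, Met1 replicate 1 or 2, or SSM2 replicate 1 or 2. Without NDL replicates 1 and 2 together, 3 were higher in both NDL comparisons and 1 was lower against SSM2. In Met1 against SSM2, 5 were higher, against 7.1%, and 3 lower, against 4.71%, led by Fat4 (3.39), Pcdh9 (2.37), Fat2 (-1.84) and Cdh23 (1.56), with the same counts in every fit that left out 1 sample. Cdh5, the cadherin gene of endothelium, averaged 7.68 in NDL, 7.61 in Met1 and 8.02 in SSM2 and did not pass.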

How the data were processed

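Total RNA (100 ng) from snap-frozen tumours was labelled and hybridised to 1 array per sample, per the labels' protocols. The authors deposited RMA signals on a log2 scale, made with oligo 1.40.2 per the submitters' processing notes. Genome build: not given in the sources used here. RMA forces arrays to a common distribution, which can hide a shift of all genes. Features with a single gene symbol were kept (21789 of 35556), named through RefSeq identifiers (21698 matched), and the feature with the highest mean stood for a gene, without a filter on signal. All 9 arrays were fitted in limma 3.58.1 (R 4.3.3, lmFit and eBayes, 6 residual and 2.42 prior degrees of freedom), with two-sided contrasts and Benjamini-Hochberg adjustment over 19938 genes, called at 0.05. Errors of differences are standard errors of the fit. The 7 members make 21 of these tests. Named list genes were those with the 4 largest differences among called genes, or all where 5 or fewer were called. The members and lists were chosen with earlier results of these data known. Alternatives covered filters, scaling, weights, features, the test and left-out arrays. Same-numbered arrays did not pair (r of deviations from -0.35 to 0.29). Figures were drawn with matplotlib 3.10.9.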

Additional observations from a re-analysis of the deposited data

How the results depend on the processing

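Of 456 member values under 22 alternatives, 427 kept their side of the threshold, 24 no longer passed, 5 newly passed and 0 reversed a call. Cdh1 and Cdh2 against Met1, in both comparisons, kept their calls in every alternative, as did Cdh3 against SSM2 except under the filter at the median signal, which left it out. The cause of the changes below was not tested.

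Members higher in NDL than in Met1 numbered 1 (Cdh1) with array weights, whose estimation stopped before it converged, with a minimum fold of 1.5, and without NDL replicates 1 and 2 together, and 1 to 3 when 1 array was left out. Members lower in NDL than in SSM2 numbered 0 under the median filter and 2 when these lines were fitted alone, and 1 to 2 when 1 array was left out. Members lower in Met1 than in SSM2 numbered 2 with a minimum fold of 1.5, without NDL replicates 1 and 2, and with these lines alone, and 2 to 4 when 1 array was left out. Members differing among lines numbered 3 with array weights and without NDL replicates 1 and 2, and 3 to 5 when 1 array was left out.

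Over all genes, NDL against Met1 gave 3814 calls, 871 with a minimum fold, 1702 without NDL replicates 1 and 2, and 2371 to 6631 when 1 array was left out. NDL against SSM2 gave 3364 calls, 644 with a minimum fold, 1190 without NDL replicates 1 and 2, 1755 with these lines alone, and 1873 to 7018 when 1 array was left out. Met1 against SSM2 gave 2356 calls, 4007 with array weights, 542 with a minimum fold, and 1360 to 2754 when 1 array was left out.

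With the replicate number as a block, 2 members were lower in Met1 than in SSM2, as Cdh11 (adjusted p = 0.0782) and Epcam (adjusted p = 0.051) no longer passed. The numbers did not pair the arrays, since deviations of the 9 same-numbered pairs correlated at -0.35 to 0.29.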
